A study of Mus musculus with 8 samples.

Results

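The comparison described here is the genotype dependence of the interleukin-4 (IL-4) response of mouse peritoneal macrophages, measured as the KO response minus the WT response on the log2 scale. All genes detected on the arrays were taken, which were 9786 of the 16593 genes named on the Illumina Mouse Ref-8 bead array, and all 8 arrays of the series entered. Peritoneal macrophages, the resident phagocytes of the abdominal cavity, came from unchallenged C57BL/6 mice and formed 4 groups of 2 arrays each. The first was Fcg-chain KO cells (KO), which lack the common gamma chain of Fc receptors, given recombinant IL-4 at 10 ng/ml for 6 h, and the second was KO cells left unstimulated. The other groups were WT cells with the same IL-4 treatment and WT cells left unstimulated. Cells of every group had adhered overnight in medium holding L929 supernatant, a source of M-CSF on which macrophages grow, before non-adherent cells were washed off. The labels give neither the age and sex of the mice nor how the KO line was made, and they tie no array to an animal. P-values therefore measure only the spread between these duplicates, which may be technical.

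IL-4 is a cytokine of type 2 immunity that signals through its receptor, JAK kinases and the transcription factor STAT6, and it drives the alternative activation of macrophages, a state with lectins, chitinase-like and resistin-like proteins, arginine uptake and low inflammatory output. The gamma chain, encoded by Fcer1g, is a small membrane adaptor whose ITAM motif passes signals from activating Fc receptors and several C-type lectins to the kinase Syk. A response to IL-4 can therefore be set beside the level from which it starts, and the classes used below keep the size of a response apart from its baseline.

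Fcer1g had intensities of 91.8 and 86.6 in KO with IL-4 and 85.7 and 87.5 in unstimulated KO, against 9915 and 10170.2 in WT with IL-4 and 12988 on both arrays of unstimulated WT. All 4 KO arrays lay under the background threshold of 93.2 to 93.4 intensity units, so in deposited intensities the difference was at least 108-fold with IL-4 and at least 139-fold without it (limma adjusted p = 5.6e-15 and 2.54e-15). All 9 macrophage markers on the array were above background on all 8 arrays, with summed intensities of 26932 to 27162 in KO with IL-4, 27564 to 28222 in unstimulated KO, 26393 to 27391 in WT with IL-4 and 28981 to 29905 in unstimulated WT. Most of each sum was Lyz2, at 16825 to 18303 on the 8 arrays, so these sums say little of the other members. Of the 9 macrophage markers, 3 were higher in KO averaged over both conditions and 3 lower, beside 5.43% and 4.73% of all genes tested. Of 8 B cell markers, 6 were above background on all arrays, with sums of 2385 to 2889 in KO and 1968 to 2889 in WT. All 16 markers of large peritoneal macrophages, the resident type, were above background on all arrays, and they summed to 39008 to 40814 in KO with IL-4 and 42163 to 42808 in unstimulated KO, against 33378 to 36456 in WT with IL-4 and 33875 to 35113 in unstimulated WT. Their sum was thus higher in KO without overlap, but it is weighted to the brightest members. Vsig4 read 5347.7 and 5823.2 in KO with IL-4 against 2617.4 and 2366.5 in WT with IL-4. Without Vsig4 the sums with IL-4 overlap between genotypes. F10 went the other way with IL-4, at 3857.9 and 3031.8 in KO against 4769.9 and 6454.4 in WT. Of the 16, 10 were higher in KO averaged over both conditions and 1 lower, where 5.43% of all genes tested were higher and 4.73% lower. Of 13 T and NK cell markers, 7 were above background on all arrays, with sums of 1575 to 1750 in KO with IL-4 and 1613 to 1798 in unstimulated KO, against 1511 to 1524 in WT with IL-4 and 1529 to 1593 in unstimulated WT. Of the 9 T and NK markers tested, 4 were higher in KO by the same average. Of 10 neutrophil markers, 1 (S100a8) was above background on all arrays and 3 (S100a9, Cxcr2 and Mmp8) on none. The neutrophil markers summed to 1632 to 1870 in KO with IL-4, 2127 to 2245 in unstimulated KO, 1746 to 1906 in WT with IL-4 and 2769 to 3050 in unstimulated WT. That sum thus differed between genotypes without IL-4 more than with it. Most of it was S100a8, at 1435.9 and 1304.9 in unstimulated KO against 2181.1 and 1900.5 in unstimulated WT, while the other members lay near background. The summed markers of 3 further lists (small peritoneal macrophage with dendritic cell, mast cell with eosinophil, mesothelial cell with fibroblast) overlapped between genotypes in at least 1 condition. The part of these markers in the results was not tested. In whole cultures, fewer cells of a type and less RNA per cell cannot be told apart.

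Both genotypes answered IL-4 broadly and mostly alike. In KO 1897 genes passed at an adjusted p under 0.05 (925 rose, 972 fell), which is 19.4% of those tested, and in WT 1619 passed (770 rose, 849 fell), or 16.5%. Of the 2368 genes that passed in at least 1 genotype, 1145 passed in both in the same direction, 572 upward and 573 downward. Only 3 passed in opposite directions, Cfap410, Uqcrb and Cox17, the last of which lies outside the rule for named genes, was named after its values were seen and was not followed through the alternative fits. Another 749 passed in KO alone and 471 in WT alone, and of these, 703 and 422 had the same sign in the other genotype. Across genes the responses of KO and WT, which share no arrays, correlated at r = 0.832 (Spearman rho = 0.671) over all 9786 genes and at r = 0.964 (rho = 0.87) over the 216 genes whose mean response passed and was at least 2-fold. Genes are not independent replicates, and these values are given as a description.

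**Figure D1:**
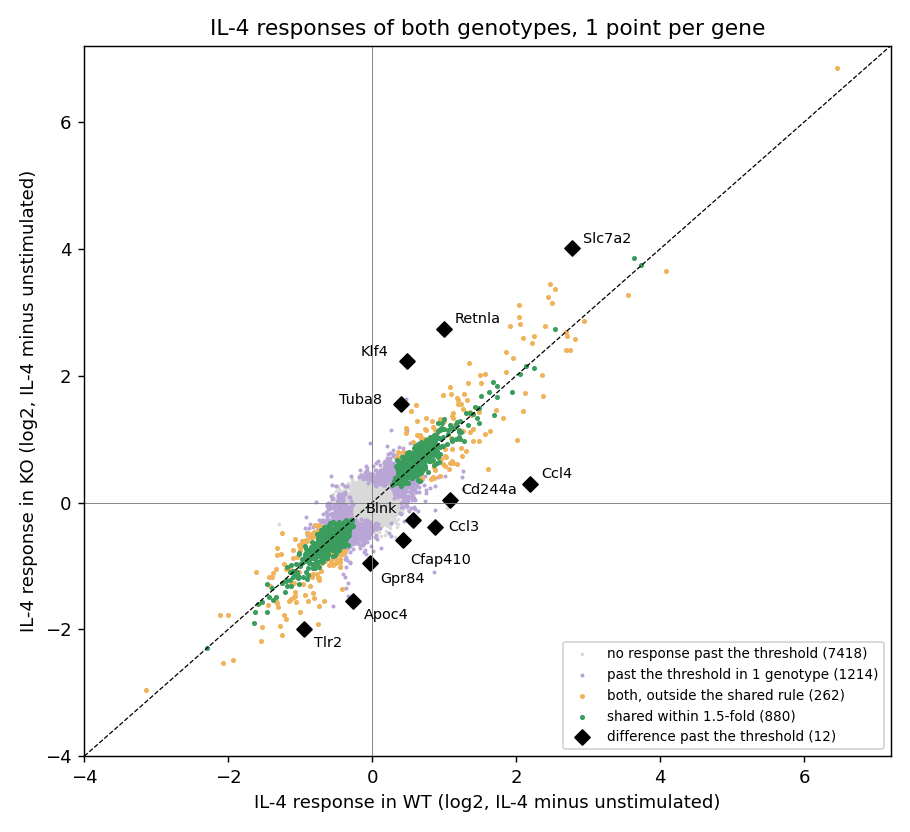
IL-4 response of each gene in KO (y axis, log2 of IL-4 over unstimulated) against that in WT (x axis, same scale), 1 point per gene. The dashed line marks equal responses, and colours give the classes with their number of genes. Most points past the threshold follow the line, and the 12 black diamonds are the genes whose difference passed, 4 above the line and 8 below it.

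The difference between the responses was itself tested for every gene, and 12 of 9786 genes passed, which is 0.123%. At an unadjusted p under 0.05 there were 642 genes, and at an adjusted p under 0.10 there were 19. Small differences are mostly missed with 2 arrays per group. In simulated data 5.16% of planted differences of 0.5 (log2) were found and 65% of those of 1. The response was more positive in KO for Retnla, Klf4, Slc7a2 and Tuba8, and more negative for Ccl4, Ccl3, Tlr2, Gpr84, Apoc4, Cfap410, Cd244a and Blnk. By size the response was larger in KO for 7 of them (Slc7a2, Retnla, Klf4, Tuba8, Tlr2, Gpr84 and Apoc4), smaller for 4 (Ccl4, Ccl3, Cd244a and Blnk) and opposite for Cfap410. The 1220 genes that passed in 1 genotype alone included 8 whose difference passed. For 639 of the 1220, the 90% interval of the difference lay within a factor of 1.5 either way.

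A response was called shared when it passed in both genotypes in the same direction, was above background in all groups, and had a 90% interval of the difference within a factor of 1.5 either way, not adjusted for the number of genes. All folds are of background-corrected intensities, and those of dim genes depend on that correction. The rule held for 880 genes, 437 that rose and 443 that fell, or 8.99% of all genes tested. A further 262 passed in both genotypes in the same direction without meeting this rule and without a difference that passed. Of these, 44 had a group that was not above background on both arrays, and for the other 218 the interval reached past the bound. For 6 of the 262 the interval lay wholly beyond a factor of 1.5. Large responses were harder to place: of the 216 genes with a mean response of at least 2-fold, 87 were shared by this rule.

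Among the largest shared increases, Hbegf, an EGF-family growth factor, had intensities of 665 and 714 in KO with IL-4 and 109 and 108 in unstimulated KO, against 609 and 689 in WT with IL-4 and 109 and 116 in unstimulated WT. IL-4 arrays were far above unstimulated ones in both genotypes, whereas the genotypes lay side by side. Hbegf rose 14.5-fold in KO and 12.4-fold in WT, and the difference was 0.22 ± 0.17 (log2, SE). Mrc1, the mannose receptor and a standard marker of alternative activation, rose 13.4-fold in KO and 13.3-fold in WT, with a 90% interval of the difference from -0.53 to 0.55 (log2). Its IL-4 duplicates were far apart, however, at 903 and 1376 in KO and 1411 and 908 in WT, and it met the shared rule in 0 of the 8 fits that left out 1 array. Anpep, the surface aminopeptidase CD13, rose 4.06-fold in KO and 4.13-fold in WT. Pcyox1l, a gene related to prenylcysteine oxidase, rose 4.45-fold in KO and 4.41-fold in WT. Both stayed in the shared class in all 17 alternative fits, and Nfil3, a basic leucine zipper transcription factor, in 16 of 17 (4.33-fold in KO, 4.73-fold in WT).

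The largest shared decreases included enzymes of sterol synthesis. Fdps, farnesyl diphosphate synthase, read 443 and 429 in KO with IL-4 and 1291 and 1630 in unstimulated KO, against 336 and 385 in WT with IL-4 and 977 and 992 in unstimulated WT. It fell 3.74-fold in KO and 3.13-fold in WT, with no overlap between IL-4 and unstimulated arrays in either genotype, and its level averaged over both conditions was 1.38-fold higher in KO (adjusted p = 0.003). Hmgcs1, the synthase at the entry of the mevalonate pathway, fell 3.30-fold in KO and 2.75-fold in WT. Msrb1, a methionine sulfoxide reductase, fell 3.29-fold in KO and 3.09-fold in WT, and Mid1ip1, a regulator of lipogenesis, fell 2.92-fold in KO and 2.60-fold in WT. The last 2 kept the shared class in all 17 alternative fits, while Fdps kept its class in 10 and Hmgcs1 in 12.

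A shared response can start and end at another level. Of the 880 shared responses, 191 had a genotype difference, averaged over both conditions, that passed, where 994 genes or 10.2% of all tested did so. The shared rule keeps genes above background with narrow intervals, for which a genotype difference also passes more readily. The shares are therefore not comparable. Among the 191, the level was higher in KO for 111, of which 41 rose and 70 fell with IL-4. It was lower in KO for 80, of which 25 rose and 55 fell. Of the 191, 8 (4.19%) lay within 100 tested genes of Fcer1g on either side, where 201 (2.05%) of all tested genes lay, the stretch of chromosome that may differ between the strains of a knockout line and its control.

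Ednrb, the endothelin B receptor, had intensities of 2503 and 2642 in KO with IL-4 and 881 and 1043 in unstimulated KO, against 1523 and 1252 in WT with IL-4 and 569 and 509 in unstimulated WT. KO arrays were above WT arrays in each condition without overlap. The response was 2.81-fold in KO and 2.78-fold in WT, while the level was 1.90-fold higher in KO (adjusted p = 8.36e-06). Klhl6, a substrate adaptor of a ubiquitin ligase, showed the same for a decrease. It read 619 and 596 in KO with IL-4 and 1530.4 and 1895 in unstimulated KO, against 337 and 354 in WT with IL-4 and 891 and 929 in unstimulated WT. IL-4 lowered Klhl6 3.02-fold in both KO and WT, and the level was 1.94-fold higher in KO (adjusted p = 2.81e-06). Wnt2, a secreted Wnt ligand, rose 6.63-fold in KO and 5.83-fold in WT at a level 1.97-fold higher in KO, and Emp1, an epithelial membrane protein, was higher in KO by 1.10 (log2) at responses of 1.57-fold in KO and 1.73-fold in WT. The Emp1 increase in KO did not pass without KO_unstim replicate 2 (log2 0.55, adjusted p = 0.0611).

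Lower levels with a shared response were seen for Timp1, an inhibitor of metalloproteinases that read 2549 and 2308 in KO with IL-4 and 1521 and 1469 in unstimulated KO, against 4409 and 6338 in WT with IL-4 and 2978 and 3390 in unstimulated WT. The IL-4 level of KO thus lay below the unstimulated level of WT. Timp1 rose by 0.72 in KO and 0.75 in WT (log2), and its level was 2.19-fold lower in KO (adjusted p = 4.1e-06). Gadd45a, a growth arrest and DNA damage response gene, had 210 and 215 in KO with IL-4 and 360 and 328 in unstimulated KO, against 436 and 558 in WT with IL-4 and 866 and 899 in unstimulated WT. Its fall was 1.90-fold in KO and 1.91-fold in WT at a level 2.92-fold lower in KO. Pcdh7, a protocadherin, rose 2.41-fold in KO and 2.27-fold in WT at a level 2.67-fold lower in KO. Dusp23, a phosphatase gene, was 2.64-fold lower in KO but is one of the neighbours of Fcer1g. The largest shift was that of Ass1, the enzyme that makes argininosuccinate from citrulline, at 4.01-fold lower in KO. Its shared fall (1.61-fold in KO, 1.46-fold in WT) was weak: it did not pass in KO without KO_unstim replicate 2 (adjusted p = 0.0958), nor in WT without WT_IL4 replicate 1 or WT_unstim replicate 2 (adjusted p = 0.357 and 0.32). Ednrb, Klhl6, Timp1, Gadd45a and Dusp23 kept their class in all 17 alternative fits.

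**Figure D2:**
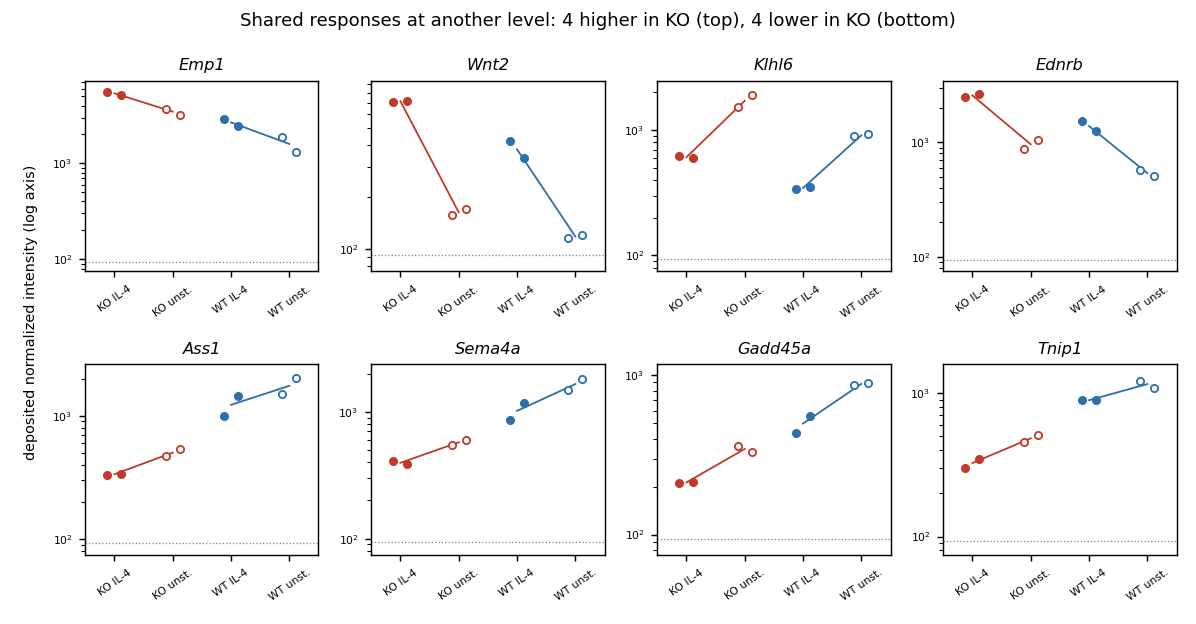
Deposited normalized intensities (y axis, log scale) of 8 genes with a shared response and a genotype shift, 1 point per array, for KO (red) and WT (blue) with IL-4 (filled) and unstimulated (open). Lines join group means and the dotted line is the background threshold. In each panel the red and blue lines run nearly parallel at different heights, 4 with KO higher (top) and 4 with KO lower (bottom).

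The genes with the most different responses are now described by their roles. The promoters of 10 of the 12 were in the RefSeq table (GRCm38.p6, 250 bases before to 50 after the annotated start), and they were searched on both strands, overlaps allowed, for 2 short motifs. One was TTC and GAA with 4 bases of any kind between them, the type that STAT6 binds, which 6.95% of all 32851 promoters in the table held. The other was GGG and TCC with 4 bases between them, an NF-kB type, which 19.2% held. Of the 10 promoters, 1 held the STAT6 type, that of Retnla, and 1 the NF-kB type, that of Tlr2. Both are shown because these genes moved in opposite directions with IL-4. They lie at chr16:48842359-48842658 on the plus strand for Retnla and at chr3:83841559-83841858 on the minus strand for Tlr2, are written 5′ to 3′ along the gene, and carry the motif matches in capitals.
Retnla promoter: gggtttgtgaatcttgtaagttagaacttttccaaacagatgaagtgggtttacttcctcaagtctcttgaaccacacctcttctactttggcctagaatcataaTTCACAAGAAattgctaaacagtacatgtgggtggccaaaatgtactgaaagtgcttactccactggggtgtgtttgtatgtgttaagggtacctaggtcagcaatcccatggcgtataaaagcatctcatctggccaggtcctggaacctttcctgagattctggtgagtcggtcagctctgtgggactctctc
Tlr2 promoter: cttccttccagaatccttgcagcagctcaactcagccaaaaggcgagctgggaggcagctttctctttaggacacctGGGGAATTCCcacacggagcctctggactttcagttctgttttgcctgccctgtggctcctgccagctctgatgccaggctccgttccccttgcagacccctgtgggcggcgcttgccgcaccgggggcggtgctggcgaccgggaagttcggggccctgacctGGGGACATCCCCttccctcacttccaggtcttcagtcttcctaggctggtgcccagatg
The Retnla match began at position -145 from the start. The Tlr2 promoter held 3 matches, of which 2 overlap in the run of capitals nearest the start. A match describes these letters and is not a measured binding site.

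Larger increases in KO were measured for a transporter, a secreted protein and a transcription factor. Slc7a2, the cationic amino acid transporter CAT2 that brings arginine into macrophages, had intensities of 4648 and 4507 in KO with IL-4 and 332 and 359 in unstimulated KO, against 4637 and 4185 in WT with IL-4 and 644 and 758 in unstimulated WT. The genotypes ended at overlapping levels with IL-4 and started apart. Slc7a2 rose 16.1-fold in KO and 6.86-fold in WT, a difference of 1.23 ± 0.15 (log2, SE; adjusted p = 0.00462). Between genotypes the level differed by 0.06 in the presence of IL-4 (adjusted p = 0.845) and by -1.18 in its absence (adjusted p = 1.73e-05), values that share arrays with the response difference. A second Slc7a2 probe gave 0.85 ± 0.22, and another, near background, 0.18 ± 0.17. The difference was 0.76 and did not pass when the probes were averaged (adjusted p = 0.207) and passed in the other 16 alternative fits.

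Retnla, which encodes the secreted resistin-like molecule alpha, also called Fizz1, had intensities of 2255 and 2887 in KO with IL-4 and 449 and 425 in unstimulated KO, against 1206 and 1017 in WT with IL-4 and 468 and 744 in unstimulated WT. Here the groups parted with IL-4, where both KO arrays were above both WT arrays, and the unstimulated WT duplicates were spread. Retnla rose 6.70-fold in KO and 1.99-fold in WT, a difference of 1.75 ± 0.27 (adjusted p = 0.0333). With IL-4 it was 2.39-fold higher in KO (adjusted p = 0.00129), while the unstimulated difference of -0.49 did not pass (adjusted p = 0.204). The response difference ranged from 1.37 to 2.12 with 1 array left out and passed in 8 of 17 alternative fits. It did not pass without KO_IL4 replicate 2, KO_unstim replicate 1 or 2, WT_IL4 replicate 2 or WT_unstim replicate 2.

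Klf4, a zinc finger transcription factor that works with STAT6 in alternative activation, read 183 and 236 in KO with IL-4 and 100.4 and 91.6 in unstimulated KO, against 105 and 97.1 in WT with IL-4 and 91.7 and 89.8 in unstimulated WT. Only KO with IL-4 stood well above background: of the unstimulated arrays, 1 KO array and 0 WT arrays were above it. Klf4 rose in KO (log2 2.23, adjusted p = 2.85e-06), and in WT the ratio of deposited intensities was at least 1.08-fold and did not pass (adjusted p = 0.101). The difference of 1.74 ± 0.27 (adjusted p = 0.0333) rests on signals at background and was 0.96 without background correction, and 2 further probes gave 1.80 ± 0.20 and 1.28 ± 0.23. It did not pass without KO_IL4 replicate 2, KO_unstim replicate 2, WT_IL4 replicate 2 or either WT_unstim replicate. Tuba8, an alpha-tubulin, read 131 and 126 in KO with IL-4 and 85.2 and 88.8 in unstimulated KO, against 103 and 98.9 in WT with IL-4 and 90.9 and 93.9 in unstimulated WT. Its increase in KO was at least 1.38-fold in deposited intensities, from a level below background. The Tuba8 difference was 1.15 ± 0.19 (adjusted p = 0.0394) and 0.43 without background correction, and it did not pass when any of the 8 arrays was left out.

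Larger decreases in KO were measured for receptors of microbial and metabolic signals. Tlr2, which recognises bacterial lipoproteins, had intensities of 988 and 940.1 in KO with IL-4 and 3623 and 3651 in unstimulated KO, against 3263 and 3341 in WT with IL-4 and 6251 and 6410.4 in unstimulated WT. No groups overlapped, and unstimulated KO lay just above WT with IL-4. Tlr2 fell 3.98-fold in KO and 1.94-fold in WT, a difference of -1.04 ± 0.11 (adjusted p = 0.00235), which passed in all 17 alternative fits. In intensity units the order of the responses is reversed: Tlr2 dropped by 2673 units in KO and dropped by 3029 units in WT, and KO started from the lower level. Among the other Toll-like receptor genes, Tlr8, a sensor of RNA, had a difference of -0.56 that did not pass, and of 19 genes of this list 1 passed, Tlr2 itself.

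Gpr84, a receptor for medium-chain fatty acids, read 999.7 and 1185 in KO with IL-4 and 2027 and 2080.3 in unstimulated KO, against 5017 and 5303 in WT with IL-4 and 5215 and 5334 in unstimulated WT. The WT arrays of both conditions overlapped, and KO arrays with IL-4 lay below those without. Gpr84 fell 1.94-fold in KO, and its WT change was -0.03 (adjusted p = 0.871). The difference was -0.93 ± 0.14 (adjusted p = 0.0269), and a second probe gave -0.86 ± 0.14. With 1 array left out the Gpr84 difference passed only without KO_IL4 replicate 2 or WT_IL4 replicate 1. Apoc4, an apolipoprotein, exceeded background on 3 arrays, both unstimulated KO arrays (135 and 143) and 1 unstimulated WT array (97.6). It fell at least 1.49-fold in KO in deposited intensities. In WT its change of -0.27 (log2) did not pass (adjusted p = 0.241). The unstimulated WT arrays, at 97.6 and 91.0, already lay near the background threshold, so a larger fall in WT could not be measured. The Apoc4 difference of -1.28 ± 0.20 (adjusted p = 0.0353) was -0.54 without background correction and passed in 2 of 8 fits with 1 array left out, those without KO_IL4 replicate 1 and without WT_unstim replicate 1.

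Blunted responses included neighbouring inflammatory chemokines. Ccl4, the chemokine MIP-1 beta that attracts leukocytes, had intensities of 615 and 767 in KO with IL-4 and 578 and 563 in unstimulated KO, against 1830.0 and 2322 in WT with IL-4 and 504 and 500.2 in unstimulated WT. Only WT with IL-4 stood apart from the other groups. Ccl4 rose 4.57-fold in WT (adjusted p = 1.35e-07), and its change of 0.30 in KO did not pass (adjusted p = 0.142). The difference of -1.89 ± 0.19 (adjusted p = 0.00124) passed in all 17 alternative fits, and a second probe gave -1.46 ± 0.19. Ccl3, the chemokine MIP-1 alpha, read 265 and 271 in KO with IL-4 and 359 and 304 in unstimulated KO, against 519 and 635 in WT with IL-4 and 379 and 310 in unstimulated WT. The unstimulated arrays of the genotypes overlapped. Ccl3 rose 1.84-fold in WT, had a change of -0.38 in KO (adjusted p = 0.0922), and differed by -1.26 ± 0.21 (adjusted p = 0.0394), which passed in 2 of 8 fits with 1 array left out, those without WT_IL4 replicate 1 and without WT_unstim replicate 1.

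Cd244a and Blnk belong to receptor-proximal signalling. Cd244a, a SLAM-family receptor, read 93.9 and 96.9 in KO with IL-4 and 94.0 and 94.9 in unstimulated KO, against 160 and 156 in WT with IL-4 and 111 and 107 in unstimulated WT. KO values stayed at the background threshold. It rose 2.12-fold in WT, with a difference of -1.04 ± 0.18 (adjusted p = 0.0446) that was -0.52 without background correction. Of 2 Cd244a probes on the array, only this 1 was above background on both arrays of any group. Cd244a is the 11th tested gene from Fcer1g, so an effect of this region cannot be told apart from one of the missing chain. Blnk, an adaptor downstream of Syk, read 389 and 368 in KO with IL-4 and 438 and 452 in unstimulated KO, against 481 and 445 in WT with IL-4 and 340 and 328 in unstimulated WT. IL-4 arrays of KO lay below, and those of WT above, the unstimulated arrays of their own genotype. Blnk rose 1.48-fold in WT, had a change of -0.28 in KO (adjusted p = 0.0786), and differed by -0.84 ± 0.15 (adjusted p = 0.0482), with -1.20 ± 0.15 from a second probe. Cfap410, a cilia and flagella associated gene, fell 1.51-fold in KO and rose 1.34-fold in WT. It read 131 and 131 in KO with IL-4 and 161 and 169 in unstimulated KO, against 276 and 298 in WT with IL-4 and 224 and 238 in unstimulated WT. The Cfap410 difference was -1.02 ± 0.17 (adjusted p = 0.0394) and -0.64 without background correction. It, like those of Cd244a and Blnk, did not pass when any of the 8 arrays was left out, and its increase in WT did not pass without WT_IL4 replicate 1 or 2 or WT_unstim replicate 1 (adjusted p = 0.0539, 0.181 and 0.149).

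**Figure D3:**
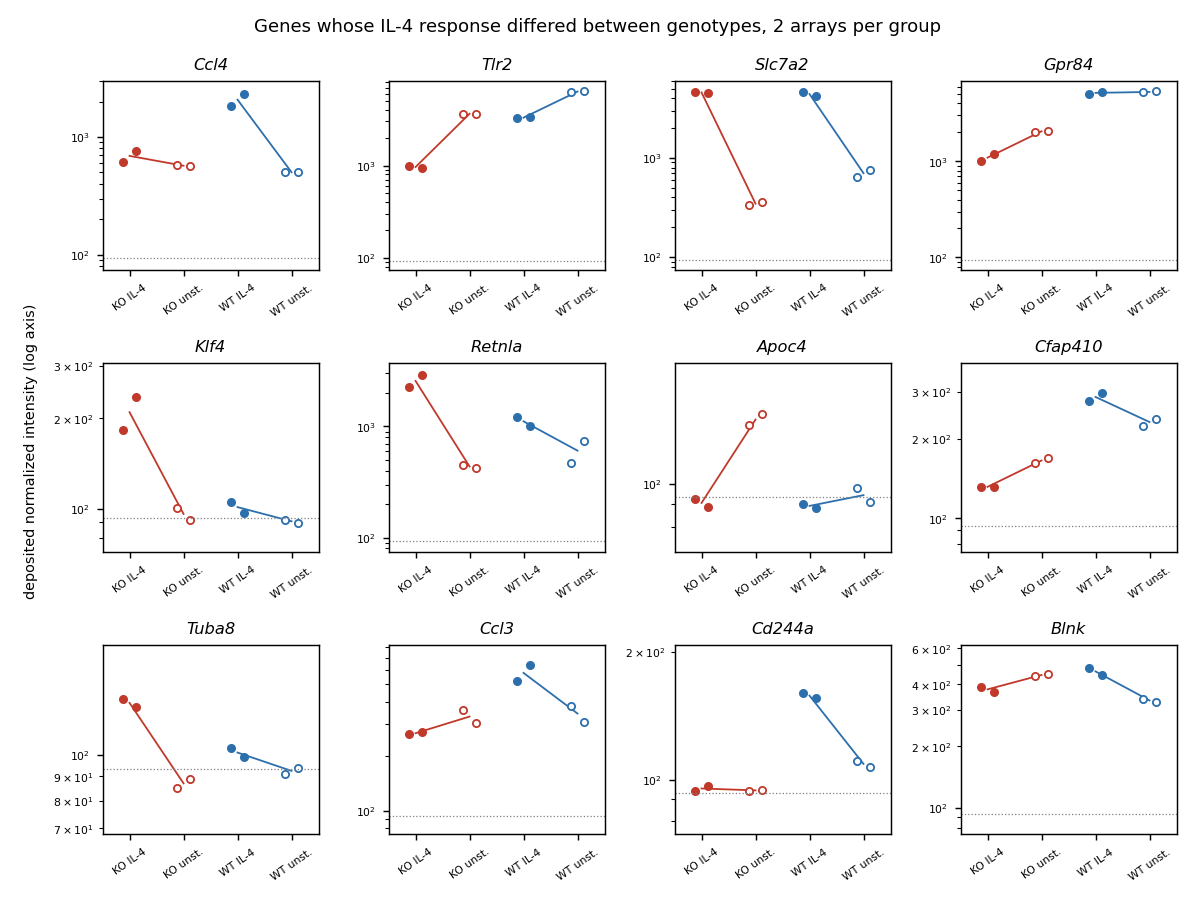
Deposited normalized intensities (y axis, log scale) of the 12 genes whose response differed, 1 point per array, for KO (red) and WT (blue) with IL-4 (filled) and unstimulated (open). Lines join group means and the dotted line is the background threshold. The red and blue lines differ in slope, and Klf4, Apoc4, Tuba8 and Cd244a have groups at the dotted line.

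**Figure D4:**
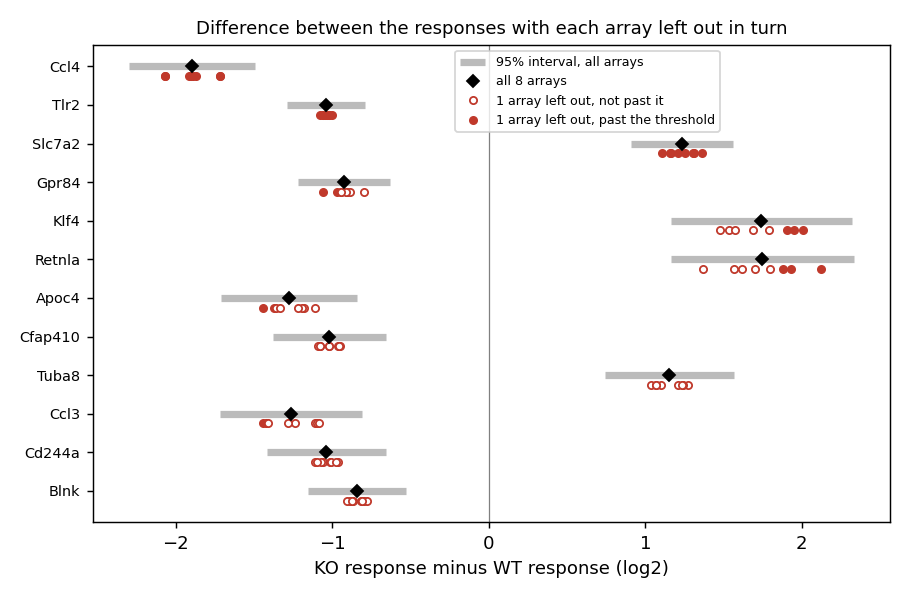
Difference between the responses (x axis, KO response minus WT response, log2) of the 12 genes. Diamonds with grey bars give the estimate and its 95% interval from all 8 arrays, and circles give the estimates with 1 array left out, filled where the difference passed. All circles keep the sign of their diamond, and Ccl4, Tlr2 and Slc7a2 have filled circles only.

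Set against their levels, the 12 genes differed in where the genotypes parted. The unstimulated genotype difference passed for 7 of them and the difference with IL-4 for 9, with both passing for 4 (Tlr2, Gpr84, Cfap410 and Cd244a). These differences share arrays with the response difference and are no separate evidence. For Slc7a2, Apoc4 and Blnk the difference passed only without IL-4, and for Ccl4, Ccl3, Retnla, Klf4 and Tuba8 only with it. Blnk changed sign between the conditions. It was higher in KO without IL-4 (log2 0.50, adjusted p = 0.0107). With IL-4 both KO arrays lay below both WT arrays, a difference of -0.34 that did not pass (adjusted p = 0.0783). The unstimulated differences of Cd244a and Blnk did not pass without KO_unstim replicate 1 (adjusted p = 0.0908 and 0.0525) or 2 (adjusted p = 0.0709 and 0.0919), nor without WT_unstim replicate 1 for Cd244a (adjusted p = 0.105) and replicate 2 for Blnk (adjusted p = 0.08).

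A further 7 genes had a difference with an adjusted p under 0.10: Edn1, Tnfaip2, Ptges, Mmp14 and Uqcrb, with Rarb and Pid1, which the naming rule leaves out. Ptges, the inducible prostaglandin E synthase, read 154 and 183 in KO with IL-4 and 414 and 490.1 in unstimulated KO, against 1298 and 1055 in WT with IL-4 and 2145 and 1716 in unstimulated WT. All KO arrays lay far below all WT arrays. Ptges fell 3.77-fold in KO and 1.68-fold in WT, the WT fall not passing without WT_IL4 replicate 2 (adjusted p = 0.071) or WT_unstim replicate 1 (adjusted p = 0.0822), and the difference was -1.17 ± 0.23 (adjusted p = 0.0921). A second Ptges probe gave -0.76 ± 0.34. Mmp14, a membrane metalloproteinase, had a difference of -0.94 (adjusted p = 0.0921) at a level 6.64-fold lower in KO. For both genes the change in intensity units was smaller in KO. Ptges dropped by 283 units in KO and dropped by 754 units in WT, and Mmp14 dropped by 319 units in KO and dropped by 617 units in WT.

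Edn1, the peptide endothelin-1, rose in both genotypes, 1.97-fold in KO and 4.03-fold in WT (difference -1.03, adjusted p = 0.0608). Tnfaip2, an NF-kB-inducible gene, read 275 and 240.1 in KO with IL-4 and 556 and 644 in unstimulated KO, against 822 and 1071 in WT with IL-4 and 1080.2 and 1259 in unstimulated WT. It fell 2.79-fold in KO, had a change of -0.34 in WT that did not pass, and differed by -1.14 (adjusted p = 0.0649). The largest single estimate was that of Il1b, interleukin-1 beta, at -1.97 ± 0.50, which did not pass (adjusted p = 0.297). Its WT duplicates with IL-4, at 635 and 1419, were more than 2-fold apart.

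Uqcrb, a subunit of respiratory complex III, went the other way. It read 772 and 970 in KO with IL-4 and 694 and 628 in unstimulated KO, against 537 and 649 in WT with IL-4 and 876 and 809 in unstimulated WT, and differed by 0.99 ± 0.19 (adjusted p = 0.087). Its increase in KO (log2 0.43) did not pass without KO_IL4 replicate 2 or any 1 of the 4 unstimulated arrays, nor its decrease in WT (log2 -0.57) without WT_IL4 replicate 1 or WT_unstim replicate 1. Rarb, a retinoic acid receptor, and Pid1, an adaptor of insulin signalling, had differences of 1.15 and -0.84 (adjusted p = 0.0791 for each).

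Genes of alternative activation, as a list, rose in both genotypes, but most were not resolved as alike or different in size. Of 29 tested, 28 rose in KO and 27 in WT, and 0 fell in either, where 9.45% of all genes rose in KO and 7.87% in WT. The list holds genes tied to IL-4 activation and was chosen with earlier results of these data known. Its counts are therefore a description and no evidence of enrichment. The median difference was 0.14, beside 0.01 over all genes, with 16 genes above 0 and 13 below. By class, 3 had a larger increase in KO (Retnla, Klf4 and Slc7a2), 8 were shared and 17 passed in both outside the shared rule. Chil3, a secreted chitinase-like protein, had the largest response of all, 4494 and 4674 in KO with IL-4 and 107 and 103 in unstimulated KO, against 4755 and 5856 in WT with IL-4 and 122 and 128 in unstimulated WT. Its difference was 0.39 ± 0.17 (adjusted p = 0.737), and 2 other Chil3 probes gave -0.09 and 0.04.

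Differences that leaned to a larger increase in KO without passing were 0.81 for the lectin Mgl2, 0.64 for the transcription factor Egr2 and 0.88 for Il4i1, a secreted amino acid oxidase. In the other direction stood Ccl17, a chemokine for type 2 T cells, at -0.66, and Cish, a STAT-induced feedback inhibitor, at -0.43. The differences of Ccl24, Pparg and Socs1 were -0.39, -0.34 and 0.07, and Irf4, a transcription factor, was shared at -0.06. The Irf4 increase did not pass in KO without KO_IL4 replicate 2 or KO_unstim replicate 2 (adjusted p = 0.061 and 0.072), nor in WT without WT_unstim replicate 2 (adjusted p = 0.0554). Arg1, the arginase often used as a marker of this state, had no response past the threshold in either genotype. Its log2 change was 0.06 in KO and -0.12 in WT, and the 90% interval of the difference ran from -0.07 to 0.42. Its intensities lay between 10323 and 12911 on the 8 arrays, near the top of the scale, where the highest value was 18300. Both KO arrays with IL-4 and KO_unstim replicate 1 held the same Arg1 value, 12203.4. An increase may not show at such a level, which was not tested.

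Many inflammatory genes had a lower level in KO. Of 23 NF-kB target genes, the level averaged over both conditions was lower in KO for 16 and higher for 0, against 4.73% lower and 5.43% higher over all genes. This list and those that follow were also chosen with earlier results of these data known. Their counts are a description and no evidence of enrichment. The limma test of the response difference passed for 0 of the 23. It had an unadjusted p under 0.05 for 8 of them, beside 642 of all 9786 genes. In the alternative fit with a replicate block within genotype, Il1b, Tnfaip2, Il1a and Tnf of this list were among 89 genes that passed. The median response difference of the list was -0.20, with 15 genes below 0 and 8 above. Tnf, the cytokine tumour necrosis factor, read 162 and 144 in KO with IL-4 and 205 and 222 in unstimulated KO, against 444 and 521 in WT with IL-4 and 475 and 481 in unstimulated WT. Tnf fell in KO (log2 -0.76, adjusted p = 0.00118), its WT arrays overlapped (log2 change 0.01), and the responses had a difference of -0.77 (adjusted p = 0.275). Of 17 inflammatory chemokines 2 passed, Ccl4 and Ccl3, while Cxcl1 and Cxcl2, attractants of neutrophils, had differences of -1.09 and -0.99 that did not (adjusted p = 0.328 and 0.32). Unlike Ccl4, both fell in KO, Cxcl1 3.10-fold and Cxcl2 2.54-fold. Their WT falls of 1.46-fold and 1.28-fold did not pass (adjusted p = 0.0902 and 0.213). In intensity units Cxcl1 dropped by 345 in KO and 756 in WT, and Cxcl2 by 248 and 251, from unstimulated levels 4.47-fold and 2.57-fold lower in KO.

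Other lists gave no gene, or 1 or 2, past the threshold. Cholesterol biosynthesis genes fell in both genotypes, 12 of 18 in KO and 10 of 18 in WT, where 9.93% of all genes fell in KO and 8.68% in WT. Of the 18 differences, 16 were below 0, with a median of -0.13, beside 4736 below 0 and 5050 above over all genes. Sqle, squalene epoxidase, fell 5.79-fold in KO and 4.18-fold in WT, and its level was higher in KO by 0.61 (log2) without IL-4 (adjusted p = 0.0102) and by 0.14 with it (adjusted p = 0.634). The unstimulated difference of Sqle did not pass without KO_unstim replicate 2 or either WT_unstim replicate (adjusted p = 0.119, 0.0505 and 0.0898). Cyp51, a demethylase of the same pathway, fell 4.52-fold in KO and 2.91-fold in WT, a difference of -0.64 (adjusted p = 0.652). Ribosome biogenesis genes were the most evenly shared, with 19 of 21 rising in KO, 16 in WT and 15 in the shared class, against 9.45%, 7.87% and 8.99% of all genes. Their median difference was 0.07.

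Interferon-stimulated genes had differences above 0 for 20 of 24, with a median of 0.27 and 0 past the threshold. Over all 9786 genes, 5050 differences were above 0 and 4736 below, with a median of 0.01. Of the 24, 4 fell in KO and 7 in WT, beside 9.93% and 8.68% of all genes in KO and WT. Oasl2, a member of the oligoadenylate synthase family, fell 1.39-fold in KO and 2.39-fold in WT, the decrease in KO not passing without any 1 KO array or either WT_IL4 replicate. Oxidative phosphorylation genes had 20 of 28 differences above 0 with a median of 0.11, and lysosome genes 17 of 21 below 0 with a median of -0.16. Hexa, a lysosomal hexosaminidase, fell in KO (log2 -0.64) and had a WT change of -0.22 that did not pass. Of the cholesterol transport and apolipoprotein genes, Abcg1, a sterol exporter, rose 2.73-fold in KO and 1.46-fold in WT, where the increase did not pass when any 1 WT array was left out. Its difference was 0.91 (adjusted p = 0.297). The 4 neutrophil markers tested had differences of 0.18 to 0.53, none past the threshold, with S100a8 at 0.50. Their summed levels are those given at the start.

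**Figure D5:**
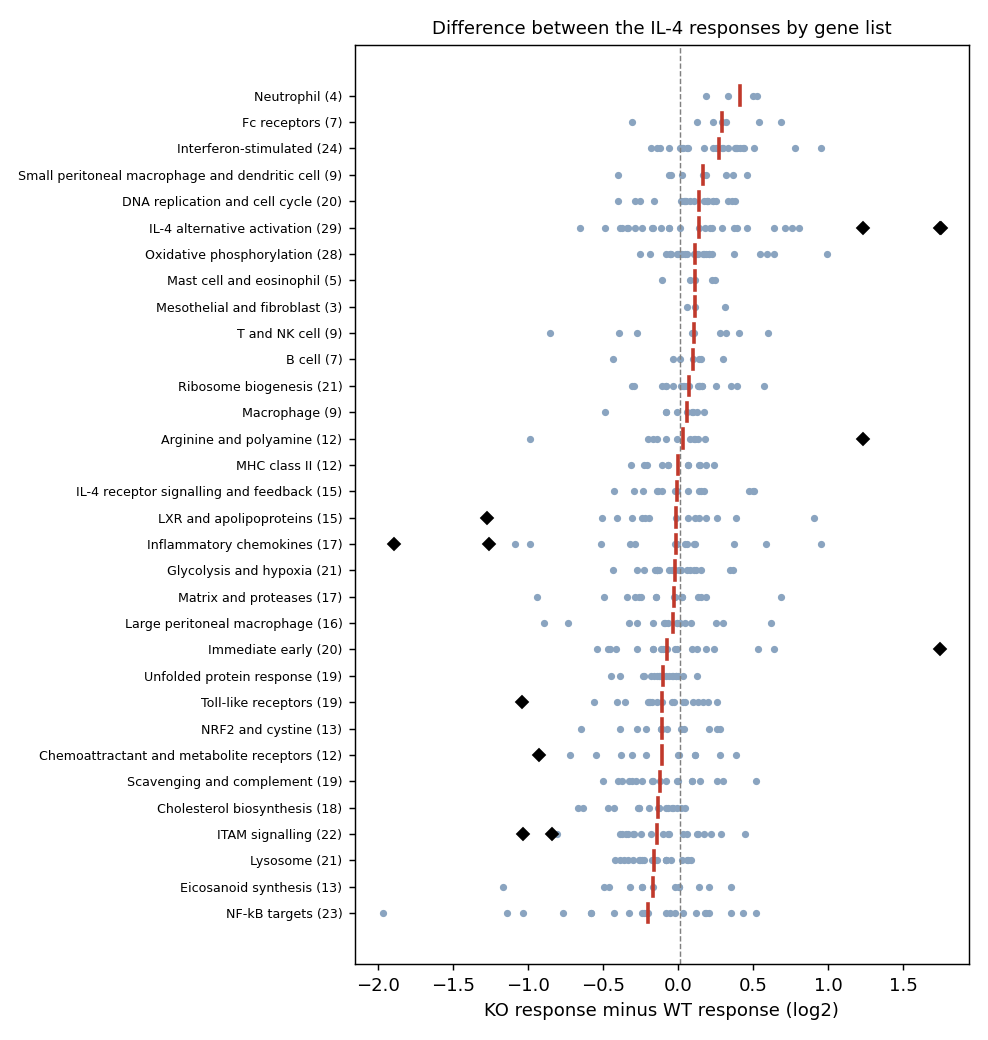
Difference between the IL-4 responses (x axis, KO response minus WT response, log2) of each gene tested in 32 gene lists, 1 line per list with its number of genes, sorted by the list's median (red bar). Points are genes, black diamonds are genes whose difference passed, and the dashed line is the median of all genes, 0.01. List medians lie between -0.20 and 0.41, and most diamonds stand at the ends of their line (Retnla and Klf4 nearly coincide in that of alternative activation).

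Over many genes, the KO response leaned slightly away from 0 on the log2 scale. Among 130 genes whose mean response was an increase of at least 2-fold, the KO response was above the WT response for 82 and below it for 48, with a median difference of 0.10 and a spread between duplicates of 0.06 (SD). Of the 86 genes with a decrease of at least 2-fold, 63 were lower in KO and 23 higher, with a median of -0.16, which is within its spread between duplicates of 0.17 (SD). With each array left out in turn, these medians ranged from 0.06 to 0.16 and from -0.25 to -0.10. Over all 1324 induced and 1539 repressed genes they were 0.05 and -0.03, each with a spread of 0.03 (SD). The median of the repressed genes was 0.01 without WT_unstim replicate 2, so its sign rested on that array.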

How the data were processed

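Bead arrays of 8 samples were read from the deposited table of normalized intensities. Per the submitters' processing notes the authors used GenomeStudio, with no version given there, and the deposited intensities had nearly equal distributions across arrays (sorted values differed by at most 0.57 units). The arrays' number, 2 per group, limits the precision. A second table of 16 columns, 8 of them signals, has headings that match no sample and was not used here.

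Intensities were background-corrected (normexp, offset 16), log2-transformed and fitted over all 4 groups in limma 3.58.1 (R 4.3.3, lmFit and eBayes with a variance trend, 4 residual and 9.27 prior degrees of freedom), with Benjamini-Hochberg adjustment over 9786 genes at 0.05. Every adjusted p in the text comes from this limma model. The background threshold was the mode of the low values plus 1.645 SD, and a gene was tested if above it on both arrays of at least 1 group. Of 25697 probes, 23978 had 1 gene symbol, 0 had several and 1719 had none. The brightest of several probes stood for a gene. A group not above background on any of its arrays gives an "at least" fold of deposited intensities, against the larger of its own signal and the lowest signal above background.

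Genes named in the text were taken from those that met a rule: every gene whose difference passed, 12 well-known IL-4 response genes, the 15 largest differences each way at an unadjusted p under 0.01 among responding genes above background in all groups, the 10 largest shared responses and the 10 largest shifts each way, and up to 4 genes of each of the 32 lists by size of the difference. The members, lists and rules were chosen with earlier results of these data known. The procedure was tested on simulated data with noise drawn from the spread of the duplicates. It found 5.16% of planted response differences of 0.5 (log2), 65% of those of 1 and 96.9% of those of 2, and 4.02% of its calls were false. Alternatives covered the background correction, filter, probes, eBayes settings, replicate blocks and leaving out each array. Figures were drawn with Python 3.11.15 and matplotlib 3.10.9.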

Additional observations from a re-analysis of the deposited data

Results flagged for a closer look

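The responses to IL-4 differed between the genotypes, by the limma test of the difference itself, for 12 genes. The KO response minus the WT response (log2) was -1.89 for Ccl4, -1.04 for Tlr2, -0.93 for Gpr84, -1.28 for Apoc4, -1.02 for Cfap410, -1.26 for Ccl3, -1.04 for Cd244a and -0.84 for Blnk. It was 1.23 for Slc7a2, 1.74 for Klf4, 1.75 for Retnla and 1.15 for Tuba8. Ccl4 and Tlr2 passed in all 17 alternative fits and Slc7a2 in 16. Cfap410, Tuba8, Cd244a and Blnk passed in none of the 8 fits that left out 1 array. Cd244a lies near Fcer1g. Klf4, Apoc4 and Tuba8 each have a group that is not above background.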

How the results depend on the processing

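The count of genes whose response differed, 12 with all arrays, was 19 without background correction, 19 without the detection filter and 4 among genes above background on all 8 arrays (Ccl4, Gpr84, Slc7a2 and Tlr2). It lay between 3 and 10 with 1 array left out, at 3 without KO_unstim replicate 2, WT_IL4 replicate 2 or WT_unstim replicate 2. With 1 array left out, 1125 to 1873 genes responded in KO (1125 without KO_IL4 replicate 2) and 981 to 1577 in WT (981 without WT_IL4 replicate 2). Shared responses then numbered 535 to 615 and shifted ones 105 to 120, where fewer arrays widen the intervals. The median difference ranged from 0.0105 to 0.0809 for induced genes and from -0.0855 to 0.0085 for repressed genes, reversing without WT_unstim replicate 2. On the linear intensity scale the Tlr2 difference was 355.36 units, opposite in sign to its log2 value. The cause of these changes was not tested, except where fewer genes or arrays enter by construction.

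The duplicates' numbers do not pair all groups: deviations correlated at 0.232 between KO groups and 0.155 between WT groups, and at -0.094 to 0.007 between genotypes. With a replicate block, 16 genes differed, including all 12. With a replicate block within genotype there were 89 such genes, 1323 shared responses and 389 shifted ones, and Il1a, Il1b, Tnf, Tnfaip2, Cxcl1, Cxcl2 and Ptges were among the 89. Without background correction Ccl17 (-0.65) and Edn1 (-0.84) passed. A bound of 2-fold in place of 1.5-fold gave 1064 shared responses. The medians of genes changed at least 2-fold were added after seeing the data. Of the response differences of the named genes, 3104 values kept direction and side of the threshold, 73 no longer passed, 59 newly passed and 1 reversed. The 73 all belonged to the 12 genes, though none to Ccl4 or Tlr2. Of 8636 other calls of these genes over the settings (responses and genotype differences), 521 no longer passed, in 99 genes. Signal near background limits dim genes.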
